A study of Danio rerio with 16 samples.

Results

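The sodium pump subunit genes atp1a1a.2, atp1a1a.3 and atp1b1b and the water and glycerol channel gene aqp3a were followed across 16 zebrafish (Danio rerio) RNA samples, each read on a 1-colour Affymetrix expression array. Every probe set whose single gene symbol in the platform annotation is one of these 4 genes was taken, which gave 4 of 15502 probe sets, or 4 of 8793 distinct gene symbols. Each gene had 1 probe set, and no probe set listed any of them among several symbols. The genes were chosen from measured values, namely low pump subunit levels in foggy mutants and differences of opposite sign for aqp3a in the mutant and injection comparisons. Their values are therefore given as a description without a test, and tests are given for related genes that were not chosen.

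At the stage labelled 36 h, 4 arrays were labelled wild type and 6 were labelled foggy mutant, with embryonic brain given as the material and no allele named. At the 12-somite stage, 3 arrays came from embryos injected with a control RNA and 3 from embryos injected with an RNA named Foggy(DelCter), with no dose given. All 16 samples also carry brain and adrenal medulla as their source. The gene behind the foggy phenotype, supt5h, codes for the larger protein of DSIF, an elongation factor of RNA polymerase II. The mutant comparison asks which transcripts differ when foggy is mutated, and the injection comparison asks which differ after the altered foggy RNA was supplied.

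The 36 h arrays form a pair of sets that follow the numbers in their labels, and are kept apart here. Numbers 1 to 3 hold 1 wild-type array and 3 labelled mutant, and numbers 4 to 6 hold 3 of each. In numbers 4 to 6, supt5h measured 197, 231 and 167 intensity units in the wild type and 40.1, 47.0 and 38.6 in arrays labelled mutant (log2 difference -1.72 ± 0.13, SE, limma adjusted p = 6.73e-05). In numbers 1 to 3, supt5h measured 209.8 in the wild type and 258, 245 and 254 in arrays labelled mutant, so those 3 arrays do not show the low level, and the genotype comparison below rests on numbers 4 to 6. At 12 somites the mean supt5h level was 409 units with control RNA and 428 with Foggy(DelCter) RNA. The log2 difference was 0.06 ± 0.12 (SE, limma adjusted p = 0.802), so this probe set did not show the supplied RNA. Whether its probes can read that RNA could not be checked here. The labels do not say whether replicates came from separate clutches or how many embryos each holds, so the spread between replicates may be technical. In whole-sample RNA, fewer cells of a type and less RNA per cell cannot be told apart.

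The sodium pump (Na+/K+-ATPase) moves sodium out of cells and potassium in at the cost of ATP. Its alpha subunit is catalytic, its beta subunit is needed for folding and delivery to the membrane, and small FXYD proteins adjust its activity. In fish, ionocytes of the skin and gills are packed with this pump and drive salt uptake, and zebrafish carry several alpha paralogs in tandem that are used by different ionocyte types. Aquaporin 3 is an aquaglyceroporin, a channel for water and glycerol, known from epithelia such as skin.

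The samples offered few other signs of ionocytes. Of 14 ionocyte markers, 4 had a probe set: ca2, rhcgb, slc4a4b and clcn2c. The ammonia transporter rhcgb and the chloride channel clcn2c were within the range of the background probes in all groups. The carbonic anhydrase ca2 carried most of the summed ionocyte marker level, which was 587 to 873 units in wild-type numbers 4 to 6 and 309 to 391 in mutants 4 to 6. The forkhead factors foxi3a and foxi3b, which define zebrafish ionocytes, were not measured here, so the word ionocyte rests on what the pump genes are known for, not on these arrays. Epidermal markers were plain to see, with 9 of 11 measured and none within background. Their sum was 24427 to 25492 units in wild-type numbers 4 to 6, 26394 to 29265 in mutants 4 to 6, 16045 to 18808 with control RNA and 13795 to 16130 with Foggy(DelCter) RNA.

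Background was read from 17 tag control probe sets, which reached at most 34.4 units in any array. The highest tag was 15.4 units in wild-type numbers 4 to 6, 26.9 in mutants 4 to 6, 34.4 in arrays labelled mutant 1 to 3, 32.5 in the wild type 1, 23.9 with control RNA and 18.9 with Foggy(DelCter) RNA. Where the mean of the dimmer group lay under its highest tag, the brighter mean was divided by that tag and the result is a lower bound, written as at least N-fold. Levels within the tag range have no order. A level is a deposited intensity and is compared only within a probe set, since probe sets differ in brightness for the same amount of RNA.

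The catalytic subunit gene atp1a1a.2 was bright in 3 arrays only. Its intensity was 616, 568 and 776 units in wild types 4, 5 and 6, against 17.1, 27.9 and 29.3 in mutants 4, 5 and 6. Mean intensity was 654 ± 109 for the wild type and 24.8 ± 6.67 for the mutant (SD, n = 3 each), a level at least 24.3-fold higher in the wild type. The groups did not overlap, and every mutant array lay close to background. The log2 difference, after adding 16 units to each value, was -3.81 ± 0.16 (SE), and -4.04 on the values as deposited.

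In the other label set the same gene was far dimmer in the wild type. Its intensity was 78.3 units in wild type 1 and 37.5, 24.7 and 28.3 in arrays labelled mutant 1, 2 and 3. The single wild-type array was above each of the 3, at least 2.27-fold above their mean, and 8.35-fold under the mean of wild types 4 to 6. At 12 somites, atp1a1a.2 measured 10.99, 5.46 and 8.90 units with control RNA and 13.8, 9.19 and 0.801 with Foggy(DelCter) RNA, all within the tag range. The order of levels was thus wild type 4 to 6, then wild type 1, with the means of the remaining groups within the tag range. Of the arrays in those groups, labelled mutant 1 (37.5 units) and mutants 5 and 6 (27.9 and 29.3) lay just above the highest tag of their group.

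The tandem paralog atp1a1a.3 followed the same order at lower intensities. Its probe set read 96.5, 114 and 168 units in wild types 4, 5 and 6 and 14.6, 6.48 and 16.3 in mutants 4, 5 and 6. The wild-type mean of 126 ± 37.4 (SD, n = 3) was at least 4.69-fold above the mutant, whose mean of 12.5 ± 5.26 (n = 3) was within background. The log2 difference was -2.20 ± 0.21 (SE), built on mutant values within background. In every other group atp1a1a.3 was not above background: it read 27.9 units in wild type 1, 9.40 to 17.1 in arrays labelled mutant 1 to 3, 0.706 to 4.54 with control RNA and 0.690 to 1.71 with Foggy(DelCter) RNA.

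In the RefSeq table of assembly GRCz12tu, atp1a1a.2 lies between atp1a1a.1 and atp1a1a.3, and atp1a1a.3 lies between atp1a1a.2 and atp1a1a.5, so both are part of 1 tandem array of atp1a1a genes. How alike their sequences are was not measured here. Where the probes lie could not be checked here, and how far a probe set reads its neighbours is uncertain. The neighbour atp1a1a.5 read 0.155 to 4.62 units over all 16 arrays and atp1a1a.1 had no probe set of its own. The member of the array that was measured well beside them, atp1a1a.4, is described with the related genes.

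The beta subunit gene atp1b1b also stood high in wild types 4 to 6, and was measured above background in all 36 h groups. It read 190, 202 and 275 units in wild types 4, 5 and 6 and 38.8, 35.8 and 26.6 in mutants 4, 5 and 6. The means were 222 ± 45.7 and 33.8 ± 6.36 (SD, n = 3 each), a 6.59-fold difference without overlap, and the log2 difference was -2.07 ± 0.15 (SE). The ratio was 4.90, 5.65 and 10.32 for numbers 4, 5 and 6, so number 6 held both the brightest wild type and the dimmest mutant.

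Between label sets atp1b1b took intermediate values. It read 109 units in wild type 1, 2.03-fold under the mean of wild types 4 to 6, and 69.8, 61.0 and 55.4 in arrays labelled mutant 1, 2 and 3, which lay 1.76-fold under wild type 1. At 12 somites atp1b1b read 25.4, 17.7 and 26.9 units with control RNA and 25.7, 18.4 and 25.5 with Foggy(DelCter) RNA. Those groups overlapped fully, with a log2 difference of -0.00 ± 0.14 (SE), and levels near the highest tag leave little room to see a fall. The descending order was wild type 4 to 6, wild type 1, labelled mutant 1 to 3 and mutant 4 to 6. The injected groups are not placed in this order, since the control RNA mean lay within the tag range. The lowest mutant array (26.6 units) lay under the highest tag of its group and within the control RNA range.

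The channel gene aqp3a behaved differently from the pump genes across the 36 h sets. It read 413, 397 and 915 units in wild types 4, 5 and 6 and 24.3, 33.6 and 119.8 in mutants 4, 5 and 6. The means were 575 ± 295 and 59.2 ± 52.6 (SD, n = 3 each), a 9.71-fold difference without overlap, with a log2 difference of -2.91 ± 0.41 (SE). Number 6 was the highest array in both genotypes, and the ratio for numbers 4, 5 and 6 was 17.0, 11.8 and 7.64.

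The GAPDH control also set number 6 apart. Its 3' probe set read 930 units in wild type 6 against 534 and 521 in wild types 4 and 5, and 505 in mutant 6 against 261 and 266 in mutants 4 and 5. The part of these differences in the aqp3a values was not tested.

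In numbers 1 to 3, aqp3a was high in both genotypes: 1051 units in wild type 1 and 754, 964 and 1033 in arrays labelled mutant 1, 2 and 3. Wild type 1 was 1.15-fold above the mean of 917 ± 145 (SD, n = 3) of the arrays labelled mutant. The arrays labelled mutant thus differed 15.5-fold between the sets, with no overlap, while the wild type differed 1.83-fold. For atp1b1b the difference between the arrays labelled mutant was 1.84-fold on the deposited intensities, and on the log2 scale it was 0.27 ± 0.12 (SE) after quantile normalization and 0.65 as deposited.

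At 12 somites, the levels of aqp3a, which was chosen in part for this difference, separated by injected RNA. It read 7.18, 7.77 and 4.97 units with control RNA, all within background, and 40.8, 55.8 and 56.3 with Foggy(DelCter) RNA. All 3 arrays of embryos injected with Foggy(DelCter) RNA were above the highest tag of any array, and their mean of 51.0 ± 8.82 (SD, n = 3) was at least 2.13-fold over the control. The log2 difference was 1.56 ± 0.13 (SE), opposite in sign to that of the mutant. Taken as 1 contrast, the mutant difference minus the injection difference was -4.64 ± 0.50 (SE) for aqp3a, with the control RNA values within background. Since atp1a1a.2 and atp1a1a.3 were not above background in either injected group, no fold is given for them there.

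**Figure D1:**
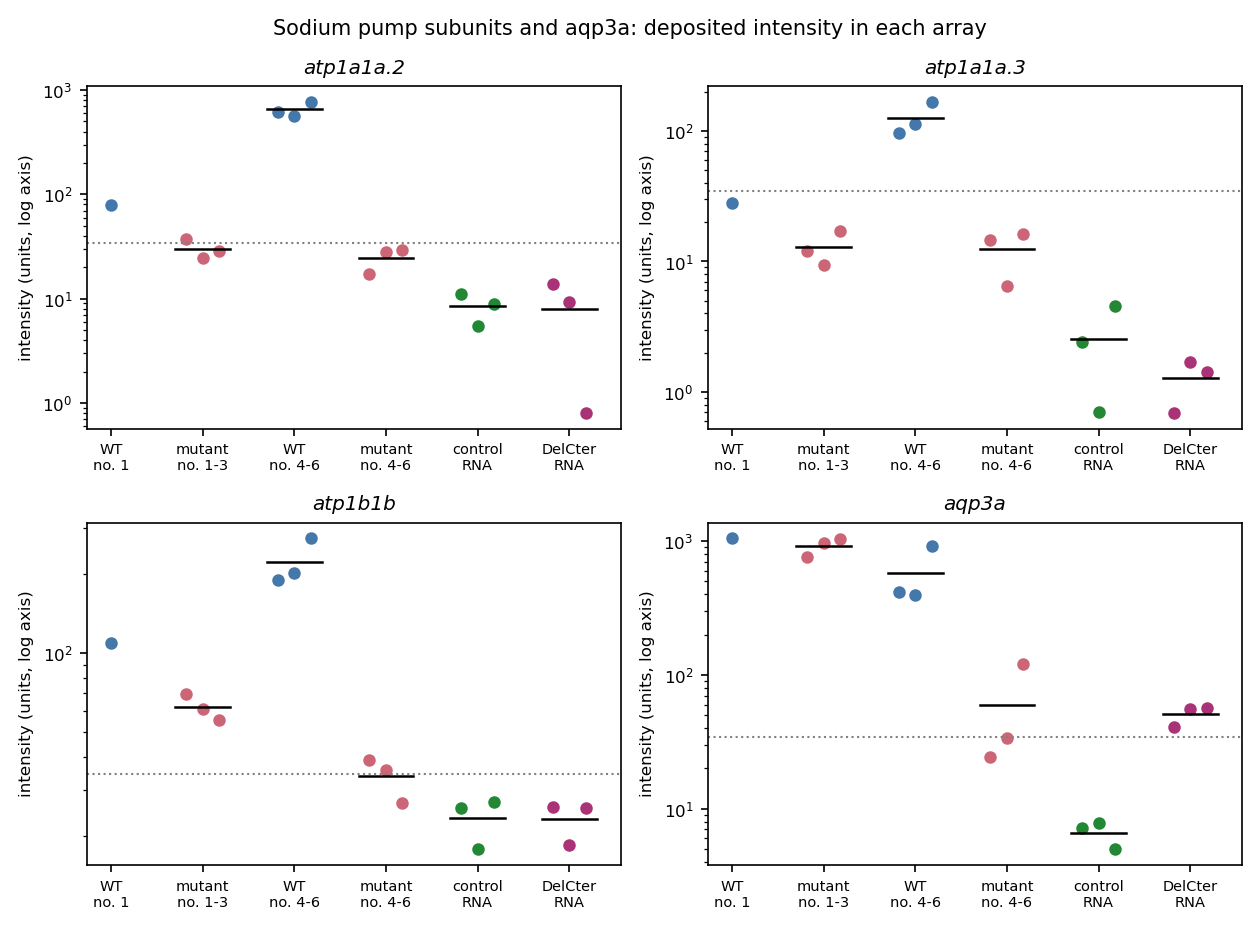
Deposited intensity (log axis) of the 4 genes in each of the 16 arrays, by group; each point is 1 array, the black line is the group mean and the dotted line is the highest tag control of all arrays (34.4 units). The pump subunits are high in wild types 4 to 6, and aqp3a is also high in all 4 arrays numbered 1 to 3 and lies above the control RNA arrays with Foggy(DelCter) RNA.

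Over the whole array, 19.3% of 10851 probe sets tested differed between mutant and wild type in numbers 4 to 6 at an adjusted p under 0.05, 8.96% higher and 10.4% lower. Of the 10 other sodium pump genes, 8 passed the filter on dim probe sets, and limma called 2 lower, 0 higher and 6 in neither direction. At an unadjusted p under 0.05, 3 were lower and 0 higher. Their median log2 difference was -0.24 against 0.06 over all probe sets tested.

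Both pump genes that fell are alpha paralogs. The tandem neighbour atp1a1a.4 read 249.7, 263 and 290.3 units in wild types 4, 5 and 6 and 117, 81.3 and 86.5 in mutants 4, 5 and 6, and fell by 1.27 ± 0.13 on the log2 scale (adjusted p = 0.00031). The paralog atp1a1b read 92.1, 95.9 and 131 units in the wild type and 18.4, 30.3 and 31.3 in the mutant, and fell by 1.38 ± 0.16 (adjusted p = 0.00065). Neither pair of groups overlapped. The mutant values of atp1a1b lay near the highest tag of their group (26.9 units), so its fall was built on dim values.

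The beta subunit paralogs did not pass the test. The log2 difference was -0.31 ± 0.14 for atp1b1a (adjusted p = 0.156), -0.18 ± 0.12 for atp1b2a (0.308), 0.21 ± 0.12 for atp1b3a (0.245) and -0.09 ± 0.14 for atp1b3b (0.689). The alpha 3 genes, known from neurons, gave -0.41 ± 0.17 for atp1a3a (0.112) and -0.13 ± 0.18 for atp1a3b (0.654). Without mutant 6, atp1b1a was called lower (-0.46, adjusted p = 0.0363).

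Of the 3 FXYD genes, 1 fell and 2 did not pass the test, with a median of 0.05. The gene that fell, fxyd11, is known from fish gills and ionocytes as a partner of the pump. It read 179, 155 and 269 units in wild types 4, 5 and 6 and 35.2, 28.7 and 38.9 in mutants 4, 5 and 6, a 5.86-fold difference without overlap. It fell by 1.92 ± 0.17 on the log2 scale (adjusted p = 0.000158). The log2 difference was 0.05 ± 0.17 for fxyd3 (adjusted p = 0.855) and 0.07 ± 0.10 for fxyd6l (0.67).

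Of the 4 other aquaporin genes, 3 were tested and 2 fell. The water channel gene aqp1a.1, known from vessels and red blood cells, read 257, 271 and 426 units in wild types 4, 5 and 6 and 48.9, 38.0 and 67.3 in mutants, and fell by 2.13 ± 0.20 on the log2 scale (adjusted p = 0.000213). The water channel gene aqp8a.1 read 83.3, 97.2 and 86.2 units against 31.8, 32.1 and 57.5 and fell by 0.80 ± 0.16 (adjusted p = 0.0101). The intracellular aquaporin gene aqp12, whose mammalian counterpart is known from the pancreas, gave 0.22 ± 0.13 (adjusted p = 0.279). The fourth, aqp9b, read 0.339 to 15.7 units over the 16 arrays and was not tested.

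Other genes of ion uptake were tested beside them. Of 10 ionocyte transporter genes with a probe set, 5 were tested and 2 fell, with a median of -0.14: the carbonic anhydrase genes ca2 (-1.001 ± 0.17, adjusted p = 0.00537) and cahz (-2.23 ± 0.28, adjusted p = 0.000886), the latter also known from red blood cells. None of the 14 tested subunits of the vacuolar proton pump, which secretes acid from a class of skin ionocytes, was called by limma, with 2 higher and 0 lower at an unadjusted p under 0.05 and a median of 0.07. Of 7 other P-type pumps tested, 1 fell, the muscle calcium pump atp2a1 (-1.48 ± 0.12, adjusted p = 0.000107), with a median of -0.03.

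Of 11 tested regulators of ionocyte formation, 4 fell and 7 did not pass the test, with a median of -0.27. The Delta ligand gene dlc, part of the Notch signal that sorts ionocytes from epidermal cells, read 169.8, 173 and 205 units in the wild type and 21.4, 17.9 and 16.1 in the mutant. It fell by 2.37 ± 0.12 (adjusted p = 4.23e-06), with all mutant values under the highest tag of their group (26.9 units). Another of its probe sets gave -0.55 ± 0.26 (adjusted p = 0.162). The epidermal factor tp63 fell by 0.81 ± 0.11 (adjusted p = 0.00124), the receptor notch3 by 0.84 ± 0.17 (adjusted p = 0.0102) and the stanniocalcin gene stc2a by 0.43 ± 0.13 (adjusted p = 0.0451). The call of stc2a was lost when wild type 4 or 6 or mutant 4, 5 or 6 was left out (adjusted p = 0.0639 to 0.136, log2 -0.49 to -0.33). The forkhead factor foxi1 gave -0.14 ± 0.12 (adjusted p = 0.432).

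Markers of other tissues also differed in numbers 4 to 6, not all in the direction of the pump genes. In the epidermis list, 5 of 21 tested genes rose and 1 fell, with a median of 0.17. The risers were the keratins krt8 (0.69 ± 0.11, adjusted p = 0.00281) and krt18a.1 (0.56 ± 0.10, 0.0063), and icn2 (0.43 ± 0.10, 0.0214), anxa1a (0.42 ± 0.11, 0.0298) and anxa1c (0.37 ± 0.11, 0.0425), and tp63 fell as given above. The call of anxa1c was not checked under other settings. The calls of icn2 and anxa1a were lost without wild type 4 or 5 or mutant 5 or 6 (adjusted p = 0.054 to 0.0808 for icn2, log2 0.38 to 0.44, and 0.0777 to 0.0981 for anxa1a, log2 0.35 to 0.42). Both were also lost on the values as deposited (icn2 0.33, adjusted p = 0.0695, and anxa1a 0.34, adjusted p = 0.0845).

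In the pronephros list, the kidney duct being another site of sodium pumps, 1 of 3 tested genes fell, with a median of -0.25. This was cdh17 (-0.60 ± 0.16, adjusted p = 0.03), whose call was lost without wild type 5 or 6 or mutant 4 or 5 (adjusted p = 0.0637 to 0.0876, log2 -0.63 to -0.43). The summed pronephros markers, 4 of 7 measured, were 334 to 419 units in the wild type and 206 to 275 in the mutant, with pax8 within the tag range in both and slc20a1a in the mutant.

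All 11 fast muscle genes tested fell (median -2.19), as did 8 of 9 red blood cell genes (median -1.85) and 8 of 9 neuron genes (median -0.70). Summed over 4 markers, fast muscle was 9564 to 17860 units in the wild type and 1122 to 2117 in the mutant, and red blood cells were 7155 to 9788 against 2115 to 3527, with slc4a1a within the tag range in the mutant. Summed over 5 markers, neurons were 1393 to 1679 against 797 to 1012. The part of these tissues in the pump values was not tested.

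After injection, 11.3% of the 10851 probe sets tested differed between Foggy(DelCter) and control RNA, 3.72% higher and 7.55% lower. Of the other sodium pump genes, 5 were tested, of which atp1b3b fell and the rest did not pass. The beta subunit gene atp1b3b read 153, 157 and 166 units with control RNA and 101, 102 and 99.99 with Foggy(DelCter) RNA (-0.58 ± 0.11, adjusted p = 0.00874). The median of the 5 genes was 0.13 against -0.02 over all probe sets tested, and limma called 0 higher (1 at an unadjusted p under 0.05). The alpha paralog atp1a1b, near the highest tag with control RNA, gave 0.27 ± 0.12 (adjusted p = 0.194).

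None of the 3 FXYD genes was called by limma after injection, nor did any pass an unadjusted p under 0.05 (median 0.05, fxyd11 0.05 ± 0.16). With control RNA the fxyd11 level lay near the highest tag, which left little room to see a fall. The 1 aquaporin gene tested besides aqp3a, aqp12, fell. It read 109, 155 and 156 units with control RNA and 44.4, 45.4 and 50.6 with Foggy(DelCter) RNA, a 2.99-fold difference without overlap (-1.30 ± 0.14, adjusted p = 0.0003). Its second probe set gave -1.05 ± 0.21 (adjusted p = 0.00888). The embryos with the higher aqp3a level therefore had the lower aqp12 level.

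Among regulators, 1 of 11 rose and 1 fell after injection, with a median of -0.15. The forkhead factor foxi1, which acts in the ectoderm and ear placode, read 75.3, 73.3 and 71.1 units with control RNA and 107, 103 and 143 with Foggy(DelCter) RNA (0.57 ± 0.14, adjusted p = 0.0222). The Notch ligand gene jag2b fell by 0.52 ± 0.12 (adjusted p = 0.0189). The call of foxi1 was lost without control 1, 2 or 3 or Foggy(DelCter) 3 (adjusted p = 0.051 to 0.0757, log2 0.44 to 0.59), and that of jag2b without control 2 or 3 or Foggy(DelCter) 1 or 3 (adjusted p = 0.0522 to 0.0676, log2 -0.52 to -0.48).

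No ionocyte transporter gene of 5 was called after injection by limma (1 lower at an unadjusted p under 0.05, median -0.06). Of 14 proton pump subunits 2 rose and 1 fell (median 0.07), and of 6 other P-type pumps 1 fell (median -0.28). The subunit gene atp6v1g1 rose (0.65 ± 0.12, adjusted p = 0.00666) and the P-type pump gene atp2b4 fell (-0.79 ± 0.12, adjusted p = 0.00219). Both calls held in all 13 alternatives. The call of the subunit that fell, atp6v1e1b, was lost without any 1 of the 6 arrays (adjusted p = 0.0587 to 0.111, log2 -0.47 to -0.39). That of atp6v1f, which rose, was lost without control 1 or 3 or Foggy(DelCter) 1 or 2 (adjusted p = 0.109 to 0.146, log2 0.44 to 0.49).

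In the epidermis list 1 of 20 rose and 3 fell after injection (median -0.25), and in the pronephros list 2 of 5 fell (median -0.45). The epidermal calls of cldn7b (0.58 ± 0.12, adjusted p = 0.0128), anxa1c (-0.80 ± 0.12, 0.00182) and krt97 (-0.59 ± 0.11, 0.00771) held in all 13 alternatives. A second probe set of cldn7b gave 0.23 ± 0.17 (adjusted p = 0.432). The call of anxa1b, an epidermal gene that fell, was lost without control 1 or 2 or Foggy(DelCter) 2 or 3 (adjusted p = 0.061 to 0.0646, log2 -0.52 to -0.49). Both pronephros calls were lost with single arrays left out, that of cdh17 without Foggy(DelCter) 1, 2 or 3 (adjusted p = 0.0519 to 0.0713, log2 -0.66 to -0.63). That of pax2a was lost without control 2 or 3 or Foggy(DelCter) 1, 2 or 3 (adjusted p = 0.0747 to 0.129, log2 -0.46 to -0.39). Another probe set of pax2a was also called lower (-0.65 ± 0.14, adjusted p = 0.0134). In the neuron list 1 of 3 fell, in the fast muscle list 1 of 4 and in the red blood cell list 2 of 5, with medians of -0.11, -0.37 and -0.63. The epidermal marker sum, 16045 to 18808 units with control RNA and 13795 to 16130 with Foggy(DelCter) RNA, overlapped between the groups and reached lower values in the embryos with more aqp3a, and its part in the aqp3a level was not tested.

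**Figure D2:**
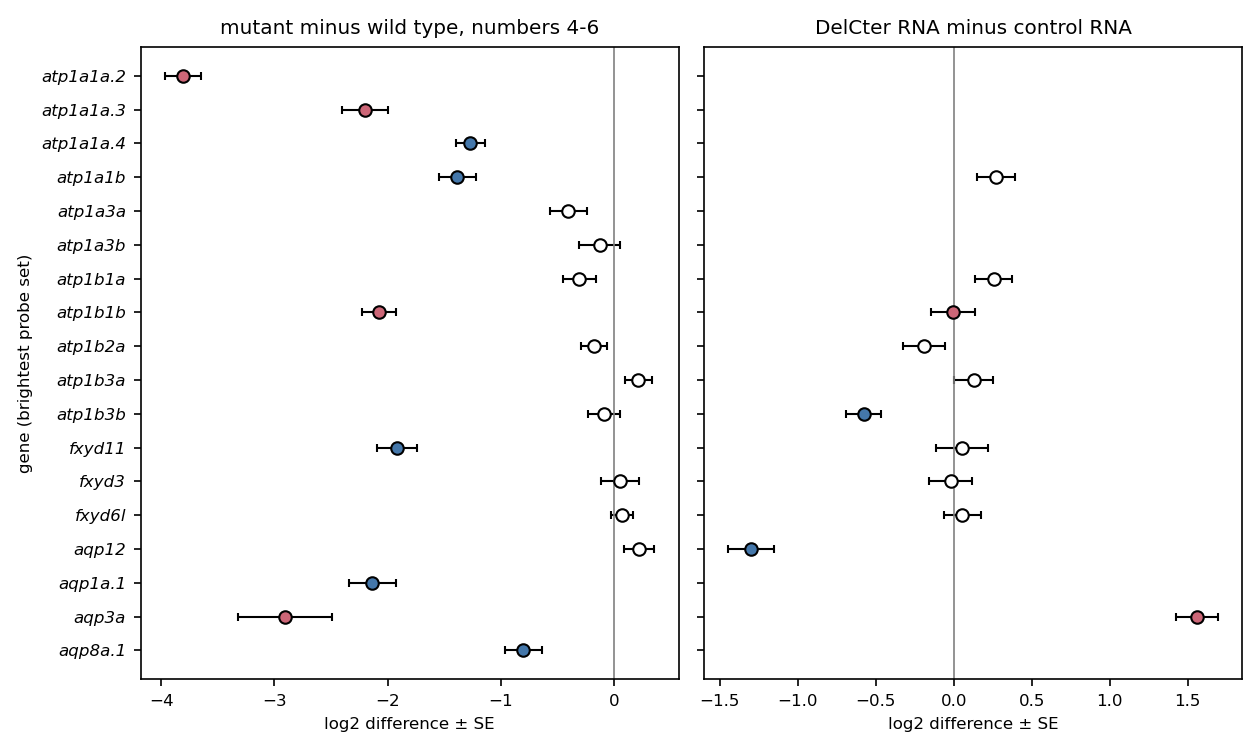
Log2 difference ± SE of the sodium pump, FXYD and aquaporin genes in numbers 4 to 6 (mutant minus wild type, left) and at 12 somites (Foggy(DelCter) minus control RNA, right), from the brightest probe set of each gene that passed the filter. Red points are the 4 chosen genes, given without a test, blue points passed the adjusted p threshold and white points did not; aqp3a lies at -2.91 on the left and 1.56 on the right.

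Whether the mutant and injection differences of a gene were unequal was tested as a contrast in 1 fit, in which 10.6% of the 10851 probe sets passed (5.7% above 0, 4.88% below). The contrast was below 0 for atp1a1b (-1.79 ± 0.21, adjusted p = 6.68e-05), fxyd11 (-2.13 ± 0.26, adjusted p = 0.000103) and aqp1a.1 (-2.26 ± 0.33, adjusted p = 0.000373), and above 0 for aqp12 (1.52 ± 0.21, adjusted p = 0.000235). Of 7 pump genes tested 1 was called, of 3 FXYD genes 1 and of 3 aquaporin genes 2, counted on the brightest probe set of each. That of atp1b1a missed the threshold (-0.56 ± 0.19, adjusted p = 0.0726) but passed it without mutant 6 (-0.73, adjusted p = 0.00999). The second probe set of atp1b1a was called lower (-0.62 ± 0.17, adjusted p = 0.0257). The filter on dim probe sets removed aqp1a.1 and atp1a1a.4 from the injection comparison, so the injection part of their contrasts came from dim values. For fxyd11 and atp1a1b, which passed that filter, control RNA levels lay near the highest tag and left little room to see a fall. The value for atp1a1a.4 was -0.83 ± 0.26 (adjusted p = 0.0555), and it passed the threshold without mutant 4 (-0.96, adjusted p = 0.0362) or without control 3 (-1.09, adjusted p = 0.00439).

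**Figure D3:**
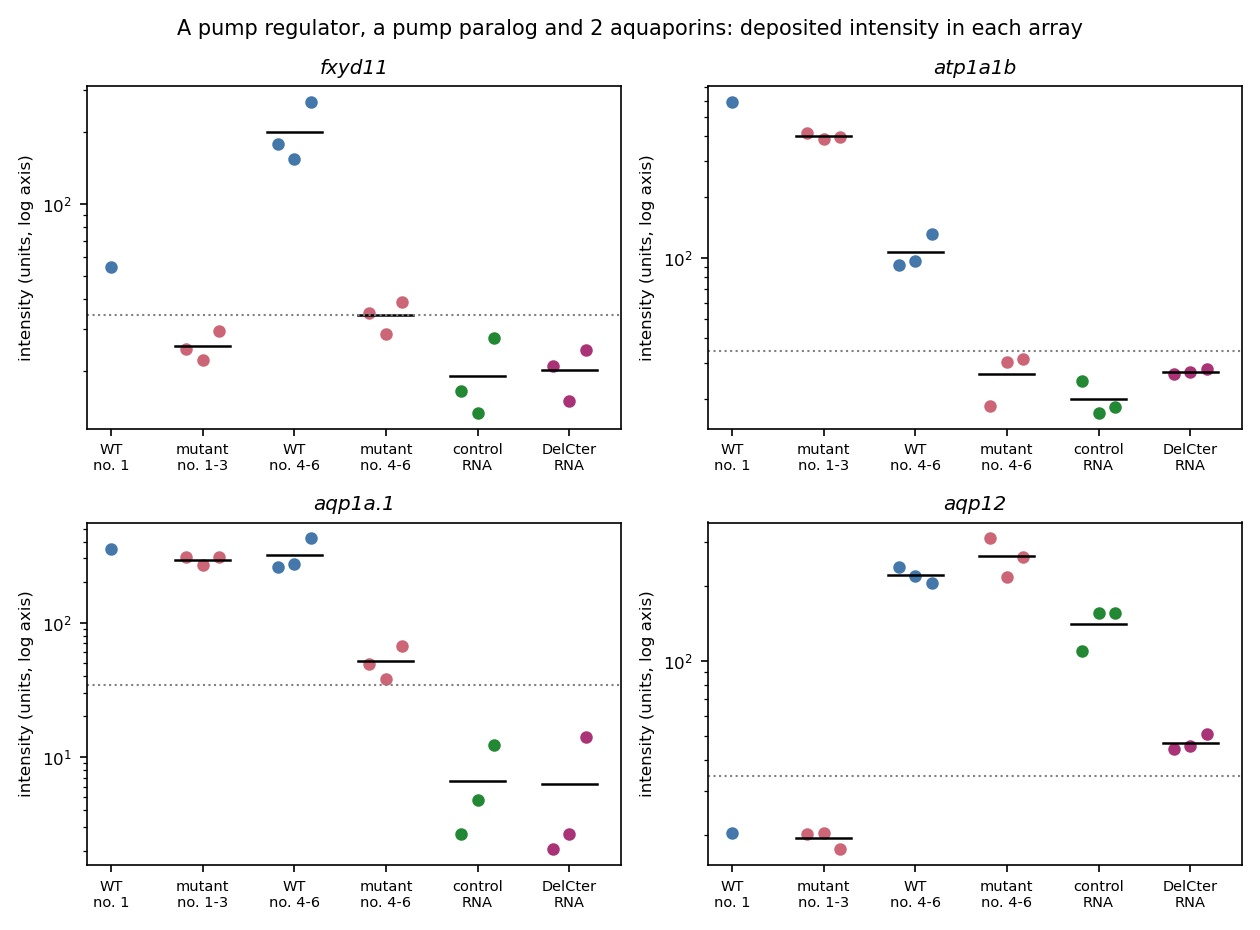
Deposited intensity (log axis) of the pump regulator fxyd11, the alpha paralog atp1a1b and the aquaporins aqp1a.1 and aqp12 in each of the 16 arrays, with points, mean lines and the dotted background line (34.4 units) as for the chosen genes. fxyd11 is high in wild types 4 to 6, atp1a1b and aqp1a.1 are high in numbers 1 to 3 in both genotypes, and aqp12 is low in numbers 1 to 3 and separates the 12-somite arrays by injected RNA.

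The stage comparison set wild types 4 to 6 against 12-somite control RNA arrays, which share arrays with the comparisons above. Stage and material (brain against embryos, as labelled) cannot be told apart in it. Summed fast muscle markers were 9564 to 17860 units in wild types 4 to 6 and 2323 in wild type 1. Summed neuron markers were 1393 to 1679 and 5967, and whether numbers 4 to 6 hold brain alone was not tested. All 4 genes, chosen in part on these wild-type arrays, were higher at 36 h. The difference was at least 27.3-fold for atp1a1a.2, 5.27-fold for atp1a1a.3, 9.29-fold for atp1b1b and 24.0-fold for aqp3a. Over the array, 57.1% of probe sets passed the threshold (24.7% as rises, 32.5% as falls). Among the other genes, 4 of 6 pump genes, all 3 FXYD genes and all 3 aquaporin genes rose, with medians of 0.87, 1.39 and 1.86 against -0.10 over all probe sets. Among the genes that rose, aqp8a.1, aqp1a.1 (3.88), atp1a1a.4 (2.92), fxyd11 (2.61) and atp1a1b (1.76) were also lower in the mutant. The values in brackets are log2 rises over dim control RNA levels. Rises were not confined to genes that were lower in the mutant. Both fxyd3 and fxyd6l, which did not pass the test in the mutant, rose by at least 1.01. Of the remaining lists, 1 of 5 transporters rose and 1 fell, 3 of 11 regulators rose and 5 fell, and 10 of 14 proton pump subunits rose and 1 fell.

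The label sets differed over much of the array: 71.4% of probe sets passed the threshold between arrays labelled mutant 1 to 3 and 4 to 6, 34.3% higher and 37.1% lower in numbers 1 to 3. Against that share, 5 of 8 other pump genes were higher and 1 lower, with a median of 0.82. The brain-expressed subunits atp1a3a (3.27 ± 0.12) and atp1b2a (2.77 ± 0.10) were higher in numbers 1 to 3, as were atp1a1b (3.13 ± 0.13) and aqp1a.1 (2.07 ± 0.15), while aqp12 (-3.16 ± 0.12), atp1a1a.4 (-0.91 ± 0.12) and fxyd11 (-0.67 ± 0.11) were lower. Summed neuron markers were 6396 to 6684 units in arrays labelled mutant 1 to 3 and 797 to 1012 in mutants 4 to 6, and the GAPDH 3' probe set read 3704 to 3814 units in numbers 1 to 3. Their part in the aqp3a levels of the sets was not tested.

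How far the genotype difference depended on the set was taken from 1 fit over the 10 arrays at 36 h, in which wild type 1 stands alone and is assumed to vary like the other groups. In it 3.28% of probe sets passed the threshold, 0.903% above 0 and 2.38% below. The difference in numbers 4 to 6 minus that in numbers 1 to 3 was -2.71 ± 0.27 (SE) for atp1a1a.2, -1.64 ± 0.33 for atp1a1a.3, -1.31 ± 0.25 for atp1b1b and -2.68 ± 0.67 for aqp3a, given as a description, with values within background entering those of both alpha subunits. Among tested genes it was -1.86 ± 0.33 for aqp1a.1 (adjusted p = 0.0122), -0.93 ± 0.20 for atp1a1a.4 (0.0287) and -1.15 ± 0.28 for fxyd11 (0.0475).

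The calls of fxyd11 and atp1a1a.4 leaned on single arrays, while that of aqp1a.1 held with each array but wild type 1 left out. Wild type 1, alone in its group, could not be left out, so how far these calls lean on it is unknown. Leaving out any 1 of the arrays labelled mutant 1, 2, 3, 4, 5 or 6 or wild type 4 ended the fxyd11 call (adjusted p = 0.0503 to 0.103, log2 -1.22 to -1.05). Leaving out labelled mutant 1, 2, 3 or 5 or wild type 5 ended that of atp1a1a.4 (adjusted p = 0.0521 to 0.0739, log2 -0.96 to -0.85). Without a filter the adjusted p was 0.0824 for fxyd11 and 0.0542 for atp1a1a.4, and with a pseudocount of 1 it was 0.127 and 0.0639. For atp1a1b the value was -0.81 ± 0.25 (adjusted p = 0.104).

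The genes whose levels ran most closely with each of the 4 over the arrays were ranked by Pearson r of log2(value + 16). The 9458 probe sets ranked exceeded the highest tag in at least 1 array, so some could pass through wild types 4 to 6 alone. In mutants 4 to 6, slc4a1a, sptb and kera averaged 10.5, 21.5 and 6.61 units, under the highest tag of that group. These r are descriptions over 16 arrays that share stage, material and label set, and r over the 12 arrays without numbers 1 to 3 is given second. The pump genes were chosen for low levels in the mutant on these arrays, so high r between them follows in part from the choice. They had r of 0.980 and 0.982 between atp1a1a.2 and atp1a1a.3, 0.955 and 0.984 between atp1a1a.2 and atp1b1b, and 0.954 and 0.982 between atp1a1a.3 and atp1b1b. With aqp3a they reached 0.604, 0.622 and 0.746 over 16 arrays and 0.909, 0.914 and 0.892 over 12.

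Over 16 arrays the FXYD gene fxyd11 ranked first for both alpha subunits, at 0.968 and 0.976 for atp1a1a.2 and 0.980 and 0.990 for atp1a1a.3. After it for atp1a1a.2 came the muscle splicing regulator rbfox1l (0.968 and 0.989), the spectrin gene sptb (0.965 and 0.981), the uncoupling protein ucp3 (0.952 and 0.970) and the red cell anion exchanger slc4a1a (0.950 and 0.979). For atp1a1a.3 they were the fast troponin tnni2a.4, by both of its probe sets (0.965 over 16 arrays), rbfox1l (0.962 and 0.985) and sptb (0.959 and 0.986). Over 12 arrays fxyd11 kept the first place for atp1a1a.3 but was not among the closest 5 of atp1a1a.2, where rbfox1l and cmlc1 (0.986) came first. The closest 5 over 12 arrays also held dct (0.983) for atp1a1a.2 and mpx (0.986) for atp1a1a.3. The neighbours of the alpha subunits thus included muscle and red cell genes, dct and mpx as well as the pump regulator.

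For atp1b1b the closest over 16 arrays were the heart myosin genes cmlc1 (0.974 and 0.981) and myl7 (0.959 and 0.964), slc4a1a (0.969 and 0.971), lrrn1 (0.942 and 0.960) and plscr3b (0.932 and 0.950). Over 12 arrays fxyd11 came first for atp1b1b (0.986), followed by gch2 (0.985).

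For aqp3a the closest over 16 arrays were the serine synthesis enzyme psat1 (0.972 and 0.951), the alcohol dehydrogenase adh5 (0.954 and 0.918), the cytochrome oxidase subunit cox6b1 (0.950 and 0.917), sdr16c5b (0.949 and 0.921) and the corneal proteoglycan keratocan, kera (0.943 and 0.885). Over 12 arrays the claudin gene cldn11a (0.981), trim55a (0.965) and the pump paralog atp1a1b (0.956) came first, with psat1 in the fifth place. In neither ranking was a gene among the closest 5 of both aqp3a and 1 of the 3 pump genes.

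**Figure D4:**
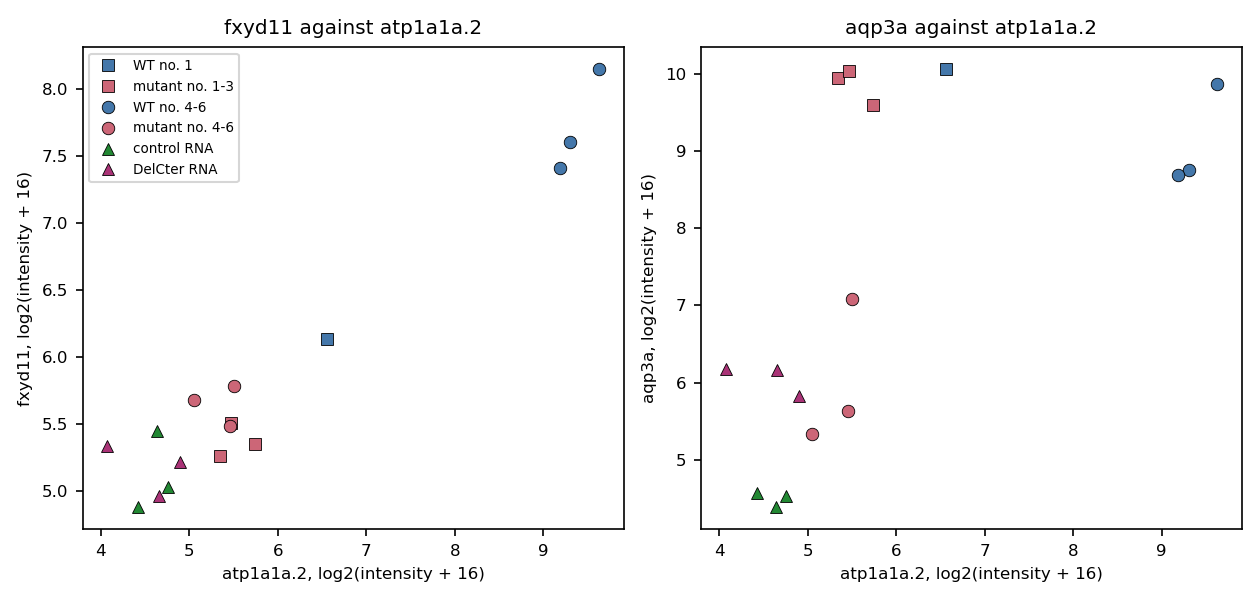
log2(intensity + 16) of fxyd11 (left) and aqp3a (right) against atp1a1a.2 over the 16 arrays, with colours and shapes for the groups. fxyd11 follows atp1a1a.2 (r = 0.968), while the arrays numbered 1 to 3 lie above the rest for aqp3a at a low atp1a1a.2 level (r = 0.604).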

How the data were processed

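RNA was read on 16 1-colour Affymetrix arrays of 15617 probe sets, of which 115 were controls. The deposited values are intensity on a linear scale, and the authors had scaled each array to the same trimmed mean with 2% removed at each end, a property seen in the values. How probes were summarised, and with which software, is information not given in the sources used here. Of 15502 other probe sets, 10795 had 1 gene symbol in the platform annotation, 135 several and 4572 none, and symbols were updated through a RefSeq table of assembly GRCz12tu.

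Samples were grouped by their labels, and the 36 h arrays were split by label number. The 4 genes and the 12 gene lists were chosen with earlier results of these data known, and the FXYD list was rewritten as a name pattern after the symbols had been seen. Arrays were used as deposited unless their log2 medians differed by over 0.2; the 36 h arrays, which differed by 0.373, were quantile normalized. Probe sets with a mean under the 30th percentile were left out, which left 10851. Values were tested as log2(value + 16), which understates the change of dim genes, by limma 3.58.1 (lmFit, then eBayes; R 4.3.3), 2-sided, with Benjamini-Hochberg adjustment and a threshold of 0.05. The filter removed atp1a1a.2 and atp1a1a.3 from the injection comparison and atp1a1a.3 from 2 others, where only an unfiltered fit holds them. Fits were checked on simulated data with 200 changed probe sets. The simulated noise was independent for each value, so that check could not show what effects shared by arrays or replicate numbers do to the calls. Arrays have no sequencing depth, so their number and, for dim genes, background limit the precision.

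Named genes follow a rule: every probe set of the 4 genes, the 4 called genes of smallest p in each direction per list, or 2 where none was called, any pump or aquaporin gene, and the 5 probe sets of highest r with each of the 4. Lists are counted on the brightest probe set of each gene. Genes named besides these, such as anxa1c, were chosen after their values were seen. Deviations from group means were correlated to check whether replicate numbers pair the samples. For the 12-somite arrays r was 0.237, 0.230 and 0.181, all over 0.1, although the tests reported for them were not paired. In numbers 4, 5 and 6, r was 0.0612, 0.278 and 0.355, over 0.1 in numbers 5 and 6 but not in number 4. The main fits of both comparisons left the replicate number out, and the replicate block was run as an alternative. Alternatives were the other normalization, other filters, pseudocounts of 1 and 64, a trend with a robust prior, blocks and each array left out. Wild type 1, alone in its group, was not left out.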

Additional observations from a re-analysis of the deposited data

Results flagged for a closer look

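Some genes moved differently in 2 comparisons by a test of the difference itself. The mutant difference minus the injection difference was -1.79 for atp1a1b, -2.13 for fxyd11, -2.26 for aqp1a.1 and 1.52 for aqp12 on the log2 scale, all past the limma threshold. Of these, fxyd11 and atp1a1b had control RNA levels near the highest tag of that group, which left little room to see a fall. The aqp1a.1 probe set was too dim to be tested in the injection comparison. With a pseudocount of 1 it gave -2.36 and missed the threshold (adjusted p = 0.0961). For aqp3a, every mutant array 4 to 6 lay below every wild type and every Foggy(DelCter) array above every control. Its contrast of -4.64 was not tested, because aqp3a was chosen on these comparisons. The genotype difference in numbers 4 to 6 minus that in numbers 1 to 3 was -1.86 for aqp1a.1, -0.93 for atp1a1a.4 and -1.15 for fxyd11, also past the threshold; the last 2 were lost without a filter, with a pseudocount of 1 and when single arrays were left out, as given above. In the first set this contrast rests on 1 wild-type array, and the arrays labelled mutant there did not show the low supt5h level.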

How the results depend on the processing

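For the pump genes, the log2 genotype differences of atp1a1a.2, atp1a1a.3 and atp1b1b were -4.35, -3.02 and -2.43 with a pseudocount of 1 and -2.88, -1.28 and -1.45 with 64. Over all 10 arrays with the label set as a block, atp1a1a.2, atp1a1a.3, atp1b1b and aqp3a gave -2.90, -1.65, -1.64 and -2.01. Without it, atp1a1a.2, atp1b1b and aqp3a gave -3.18, -1.68 and -1.29, with 24 calls (4 higher, 20 lower), and in numbers 1 to 3 alone the 4 genes gave -1.10, -0.56, -0.77 and -0.23, with 79 calls. For aqp3a the injection difference was 2.77 with a pseudocount of 1 and 0.70 with 64. The cause of these shifts was not tested.

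The replicate number as a replicate block gave 2728 calls in numbers 4 to 6 against 2099 and 1603 after injection against 1223, and it left the log2 values as they were. Numbers 1, 4, 5 and 6 with the replicate block gave 1016 calls, and atp1a1a.2, atp1a1a.3 and atp1b1b gave -3.08, -1.80 and -1.71.

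In all 10 arrays without a block and in numbers 1 to 3 alone, atp1a1a.4, atp1a1b, fxyd11, aqp1a.1, aqp8a.1, ca2, dlc, krt8, icn2 and anxa1a lost their calls, as did tp63, notch3, krt18a.1, atp2a1 and cdh17 in the former and cahz (adjusted p = 0.0521) in the latter. Calls were also lost for notch3, cdh17 and stc2a with the label set as a block and, in numbers 1, 4, 5 and 6 with the replicate block, for these 3 and tp63, krt18a.1 and icn2 (adjusted p = 0.0502 to 0.154). In numbers 1 to 3 alone the sign turned for tp63 (0.13), notch3 (0.0347), stc2a (0.20, and 0.0428 in all 10 arrays without a block), krt18a.1 (-0.000103) and cdh17 (0.12).

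Calls were 750 after injection without a filter. With a filter at the 60th percentile they were 3981 for stage and 4714 for label set, which tests fewer probe sets. For the difference between sets they were 612 with a pseudocount of 64 and 574 with the trend, alternatives chosen after seeing the data. As deposited, the label set split was 4654 higher and 3182 lower against 3727 and 4025, and atp1a1a.2 gave 0.18 in place of -0.22. Without a filter the injection calls of foxi1, atp6v1f, atp6v1e1b, cdh17 and pax2a were lost (adjusted p = 0.0526 to 0.0928). So were the genotype calls of stc2a (0.0799), cdh17 (0.0559) and anxa1a (0.0566). Quantile normalization ended the injection calls of atp6v1f (0.0723) and pax2a (0.0513). The values as deposited ended the genotype calls of icn2 and anxa1a. Pseudocounts or the trend also ended calls of stc2a, cdh17, atp6v1f and atp6v1e1b.

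With single arrays left out, genotype calls were 1180 to 1587, a shift of over 1.5 times without wild type 4 (1183) or 5 (1269) or mutant 4 (1249) or 5 (1180). Injection calls were 597 to 923, a shift of over 1.5 times without control 1 (801) or 3 (597) or Foggy(DelCter) 2 (669) or 3 (739). Calls were 860 to 1145 for mutant minus injection, 168 to 434 for the difference between sets (214, 172 and 168 without labelled mutant 1, 2 and 3), 7072 to 7652 for label set and 5470 to 5897 for stage. The genotype difference was -3.88 to -3.63 for atp1a1a.2, -2.34 to -2.0004 for atp1a1a.3, -2.15 to -1.92 for atp1b1b and -3.38 to -2.53 for aqp3a, and the injection difference was 1.498 to 1.67 for aqp3a and -0.11 to 0.09 for atp1b1b. A fit over all groups was not run apart for injection and stage, whose fits hold all their groups. Signals near background limit what can be said of atp1a1a.2 and atp1a1a.3 outside wild types 4 to 6.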
